A study of Mus musculus with 18 samples.

Results

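Wild-type haematopoietic stem cells (HSC) and haematopoietic progenitor cells (HPC) from mice 8 weeks of age were compared by ATAC-seq, which cuts accessible DNA with the Tn5 transposase. The comparison used the groups labelled wild-type HSC (2 samples) and wild-type HPC (4 samples), 6 of the 18 samples of the series, and the labels name no treatment for either group. The peak caller's rows for each group came as 1 pooled list, and overlapping rows were merged into 40073 regions in HSC and 65832 regions in HPC. The lists of 4 further groups were used only to look these regions up. They were HSC and HPC without Kmt2c, a histone methyltransferase gene (Kmt2c f/f; Vav-Cre, in which Cre is active throughout the blood lineage, 8 weeks, 2 samples each), and wild-type HSC at 16 weeks given 3 doses, 3 weeks apart, of 5-fluorouracil at 150 mg/kg or of PBS vehicle (4 samples each). The labels do not give the surface markers of the sort, so which progenitors the HPC gate held is not known.

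HSC are mostly quiescent cells that renew themselves and can restore all blood lineages, whereas progenitors divide often and are partly committed to the lymphoid, myeloid or erythroid fates. Accessible chromatin falls into start sites of genes, most of which are open in many cell types, and distal elements, which differ more between cell types and carry binding sites of lineage transcription factors. Mecom, Hlf and the HOX factors are known for their part in HSC self-renewal, PU.1, C/EBP and IRF8 for myeloid development, and Flt3, Il7r, Ikzf1 and Ebf1 for the lymphoid path.

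Because each group had 1 list, there were no replicate values and no test, and the intervals given are 95% Wilson intervals that cover counting error only and treat neighbouring regions as independent. Fold enrichment is the peak caller's ratio of signal at a summit to local background in that list. The median fold enrichment was 14.6 in HSC and 13.7 in HPC, and the median region was 483 bp wide in HSC and 481 bp in HPC. The −log10 p of a region grows with sequencing depth, and its median was 54.7 in HSC and 83.8 in HPC. The read depth of the samples was not known, and the larger HPC list also pools more samples. The lists were therefore compared at an equal number of the strongest regions, the 40073 with the highest −log10 p in each, which is the whole HSC list. A region without a 1 bp overlap in the other list's 40073 is called HSC-only or HPC-only below, and such a region can still be present among the weaker rows of the other list.

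The labels were checked against 12 HSC markers, among them Mecom, Hlf, Procr, Fgd5 and Slamf1, and 12 markers of committed progenitors (Flt3, Cd48, Mpo, Cebpe, Irf8, Ms4a3, Elane, Csf1r, Csf3r, Dntt, Il7r and Satb1). The HSC markers had 26 HSC-only and 14 HPC-only regions, and 6 of the 11 marker genes with a region had more HSC-only regions while 2 had more HPC-only regions. The HSC share was 65% (49.5 to 77.9%), an interval that holds the 49.6% over all protein-coding genes. With the lists as deposited the set had 12 HSC-only and 35 HPC-only regions, with 1 gene on the HSC side and 7 on the HPC side. All protein-coding genes then had 3159 HSC-only and 27087 HPC-only regions, with 682 genes on the HSC side and 9841 on the HPC side. The committed-progenitor markers had 2 HSC-only and 12 HPC-only regions, and 1 of 11 genes had more HSC-only regions while 7 had more HPC-only regions, an HSC share of 14.3% (4.01 to 39.9%). Tek, the angiopoietin receptor of quiescent HSC, had 1 region, with a fold enrichment of 11.3 in HSC and no region in HPC. Cd48, a surface protein absent from the most primitive HSC, had no region in HSC. It had 5 in the HPC list as deposited, with fold enrichments from 6.53 to 17.2, of which 2 were HPC-only at equal number. Hoxb5 had no region in either list. The markers followed the labels in these respects, although Vwf had 1 HSC-only and 4 HPC-only regions and Mpo, of neutrophil progenitors, had 1 HSC-only and 0 HPC-only regions. In loci present in both lists the marker sets separated less. Of 54 HSC marker loci, 14 ranked 20 or more percentile points higher in HSC and 5 in HPC by −log10 p, but 7 and 6 by fold enrichment. Of 30 committed-progenitor loci the counts were 5 and 6 by −log10 p, but 10 and 2 by fold enrichment, against the label. Of the 34477 loci of all protein-coding genes, 4202 (12.2%) and 4553 (13.2%) shifted this far by −log10 p, and 4305 and 4532 by fold enrichment. By fold enrichment the HSC markers were thus near the share over all genes.

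Other cell types were checked in the same way. The T and NK markers Cd3e, Cd3d, Lck and Zap70 had 0 HSC-only and 4 HPC-only regions, the mature B markers 0 and 3, the mature neutrophil markers 0 and 2, and the macrophage markers 3 and 7, with C1qa and Camp at no region in either list. The stroma and endothelium markers had 5 HSC-only and 2 HPC-only regions, an HSC share of 71.4% whose interval (35.9 to 91.8%) holds the 49.6% over all genes, while of their 17 loci in both lists 1 shifted toward HSC and 4 toward HPC, with a median of -6.07 points. The erythroid markers had 1 and 2. The part of these cell types in the results below was not tested.

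Some start sites had a region in a single list. The windows below run from 250 bases before to 50 bases after a RefSeq start site on GRCm38.p6 and are shown because the first 3 had a region in HSC with no HPC region within 1 kb, and the last 3 had one in HPC with no HSC region within 1 kb. CpG dinucleotides are in capitals. Pdk4 encodes pyruvate dehydrogenase kinase 4, which inhibits pyruvate dehydrogenase, Zim1 is an imprinted zinc finger gene, and Rarb is a retinoic acid receptor. Cx3cr1 is the fractalkine receptor of monocytes, Trem1 an activating receptor of myeloid cells, and Il7r the interleukin-7 receptor of lymphoid progenitors. These genes were chosen after their values were seen.
Pdk4: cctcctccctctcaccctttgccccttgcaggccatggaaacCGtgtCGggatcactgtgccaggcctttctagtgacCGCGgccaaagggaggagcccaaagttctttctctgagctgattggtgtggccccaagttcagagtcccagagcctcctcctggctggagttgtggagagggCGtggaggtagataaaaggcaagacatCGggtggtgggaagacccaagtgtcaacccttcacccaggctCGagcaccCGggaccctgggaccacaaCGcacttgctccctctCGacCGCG
Zim1: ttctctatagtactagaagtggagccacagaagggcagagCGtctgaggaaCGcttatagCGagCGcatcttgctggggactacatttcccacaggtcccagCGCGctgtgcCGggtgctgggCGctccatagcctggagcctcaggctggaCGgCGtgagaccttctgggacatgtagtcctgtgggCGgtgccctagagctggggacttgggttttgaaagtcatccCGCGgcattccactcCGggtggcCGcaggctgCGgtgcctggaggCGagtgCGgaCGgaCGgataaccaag
Rarb: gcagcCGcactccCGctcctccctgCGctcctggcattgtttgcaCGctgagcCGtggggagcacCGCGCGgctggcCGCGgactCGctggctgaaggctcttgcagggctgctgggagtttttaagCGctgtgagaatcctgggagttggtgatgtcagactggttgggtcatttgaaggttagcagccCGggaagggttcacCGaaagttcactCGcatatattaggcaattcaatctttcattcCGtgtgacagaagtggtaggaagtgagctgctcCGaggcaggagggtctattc
Cx3cr1: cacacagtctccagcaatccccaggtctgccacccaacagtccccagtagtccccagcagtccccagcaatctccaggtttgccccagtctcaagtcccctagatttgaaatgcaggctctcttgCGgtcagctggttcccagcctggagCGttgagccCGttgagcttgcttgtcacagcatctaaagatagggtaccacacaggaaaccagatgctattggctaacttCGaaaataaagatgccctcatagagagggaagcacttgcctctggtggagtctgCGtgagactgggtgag
Trem1: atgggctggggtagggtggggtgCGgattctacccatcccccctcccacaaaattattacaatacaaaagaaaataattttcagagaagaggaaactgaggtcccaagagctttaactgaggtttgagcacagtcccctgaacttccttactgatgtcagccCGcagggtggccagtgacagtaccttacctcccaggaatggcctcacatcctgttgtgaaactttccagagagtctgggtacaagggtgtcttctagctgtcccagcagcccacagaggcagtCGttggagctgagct
Il7r: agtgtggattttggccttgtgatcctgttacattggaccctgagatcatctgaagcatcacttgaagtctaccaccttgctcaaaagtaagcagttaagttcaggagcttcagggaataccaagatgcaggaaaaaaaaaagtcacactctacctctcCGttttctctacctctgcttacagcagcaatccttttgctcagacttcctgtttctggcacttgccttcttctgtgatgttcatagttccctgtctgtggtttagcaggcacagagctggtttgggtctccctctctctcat

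The Pdk4 window (chr6:5496229-5496528, minus strand) lay in an HSC region with a fold enrichment of 21.5, rank 7849 of the HSC list by −log10 p, and was again found in knockout HSC (21.7), 5-fluorouracil HSC (19.97) and vehicle HSC (20.4) but not in knockout HPC. Zim1 (chr7:6696383-6696682, minus strand) had a fold enrichment of 28.7 in HSC, 28.5 in knockout HSC and 16.6 in vehicle HSC, with no region after 5-fluorouracil or in either HPC list. The Rarb window (chr14:16575427-16575726, minus strand) had 12.2 in HSC, 13.4 in knockout HSC and 9.94 in knockout HPC. All 3 HSC lists other than the one that chose these starts therefore held Pdk4 and Rarb, and 2 of them held Zim1.

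In HPC, Cx3cr1 (chr9:120068247-120068546, minus strand) had a fold enrichment of 26.4, and it had 27.0 in knockout HPC, 15.7 in knockout HSC, 17.3 after 5-fluorouracil and 14.8 in vehicle HSC. Trem1 (chr17:48232489-48232788, plus strand) had 18.4 in HPC, 19.9 in knockout HPC and 6.87 in knockout HSC, and no region in the 16-week HSC lists. Il7r (chr15:9529827-9530126, minus strand) had 25.2 in HPC, 28.4 in knockout HPC, 7.15 after 5-fluorouracil and 9.02 in vehicle HSC, and no region in knockout HSC. The 3 starts were strongest in the 2 HPC lists, and the larger HSC lists of 16-week mice held weak or moderate regions at Cx3cr1 and Il7r.

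The printed windows also differ in CpG content, with 12, 20 and 17 CpG in Pdk4, Zim1 and Rarb, against 5, 3 and 1 in Cx3cr1, Trem1 and Il7r. This contrast belongs to the chosen windows. Over all windows with no region of the other deposited list within 1 kb, the medians had the opposite order. They were 14 CpG in 136 HSC windows and 19 CpG in 1260 HPC windows. Over all 21262 start windows the median was 13 CpG. At equal number, 1082 windows were open in HSC only and held a median of 21 CpG, and 474 were open in HPC only and held a median of 14, while windows open in both had 22 and windows open in neither had 4. Under 10 CpG were found in 16.8% of HSC-only windows (14.7 to 19.2%) and 35.2% of HPC-only windows (31.1 to 39.6%). The knockout lists gave 18.4% in HSC and 34.3% in HPC. With the lists as deposited this order turned, at 27.9% of 201 HSC-only windows and 24.8% of 1611 HPC-only windows, so the difference belongs to the comparison at equal number.

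Motifs were searched on both strands of the same windows as exact letters, namely the PU.1-type ETS motif GAGGAAGT, the general ETS motif CCGGAAGT, the RUNX motif TGTGGT, the GATA factor motif AGATAA, the AP-1 motif TGANTCA, the NF-Y motif CCAAT, the Sp/KLF motif GGGCGGGG and the TATA box TATAAA. Both ETS motifs end in the same 6 letters. The PU.1-type letters were in 2.50% of HSC-only windows (1.72 to 3.61%) and 4.64% of HPC-only windows (3.08 to 6.93%), against 3.13% of all windows, and in the knockout lists in 2.45% of HSC-only windows (1.69 to 3.54%) and 6.33% of HPC-only windows (4.35 to 9.11%). The intervals of the 2 classes overlapped in wild type and not in knockout. CCAAT was in 26.5% of HSC-only and 24.1% of HPC-only windows, and in 42.4% of windows open in both. The RUNX letters were in 119 of 1082 HSC-only windows and 71 of 474 HPC-only windows. Of HSC-only and HPC-only windows, the GATA letters were in 5.82% and 6.75%, the AP-1 letters in 5.45% and 5.27%, the Sp/KLF letters in 33.4% and 28.3%, the TATA letters in 5.45% and 7.17%, and the general ETS letters in 6.01% and 3.59%. Over all windows the shares were 5.15% for the general ETS letters, 14.97% for RUNX, 9.65% for GATA, 6.99% for AP-1, 38.2% for CCAAT, 23.6% for Sp/KLF and 12.6% for the TATA letters.

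At equal number, 9508 regions were HSC-only (23.7%) and 9729 were HPC-only (24.3%), so most of the strongest regions of each population were in the other list as well. With the lists as deposited, 3516 HSC regions (8.77%) had no HPC region and 29370 HPC regions (44.6%) had no HSC region. Strong regions were seldom in a single list. Among the strongest 5000, 0.64% were HSC-only (0.45 to 0.90%) and 1.78% were HPC-only (1.45 to 2.19%), and between ranks 35001 and 40000 the shares were 66.0% and 52.3%. HPC-only regions were thus more frequent among strong regions and HSC-only regions among weak ones. The totals of the 2 classes are nearly equal here, so a lower share among strong regions comes with a higher share among weak ones. The knockout lists also crossed, with 1.00% in HSC and 1.36% in HPC among the strongest 5000 and 59.3% in HSC and 49.9% in HPC between ranks 35001 and 40000. The median width was 402 bp for HSC-only and 464 bp for HPC-only regions.

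**Figure D1:**
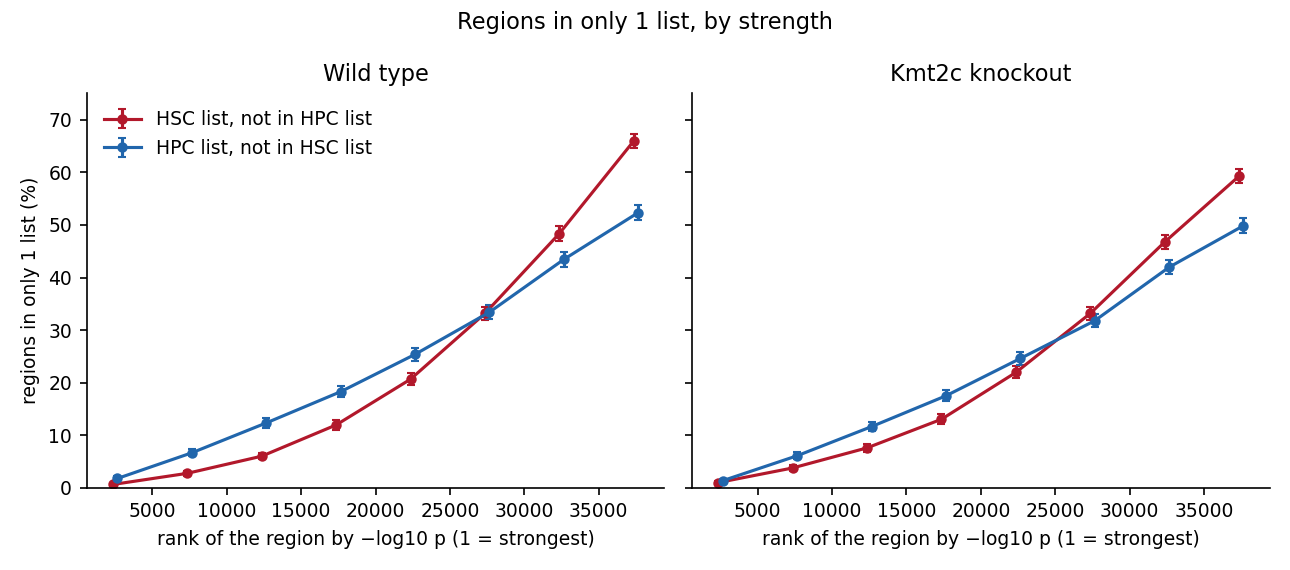
Share of regions found in only 1 list (vertical axis, percent) by rank of −log10 p in bins of 5000 regions (horizontal axis), for HSC (red) and HPC (blue) in wild-type lists at the left and Kmt2c knockout lists at the right, with 95% Wilson intervals. In wild type the HSC share runs between 0.64% and 66.0% and the HPC share between 1.78% and 52.3%, with 33.2% and 33.4% between ranks 25001 and 30000 and HSC higher in the weaker bins up to rank 40000.

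The HSC-only regions of highest fold enrichment with no HPC region within 1 kb lay inside Exoc6b, which encodes an exocyst subunit (chr6:84883007-84883594, fold enrichment 32.3), more than 100 kb from any protein-coding gene (chr5:46926291-46926867, 30.8), inside Opcml, a cell adhesion gene (chr9:28289497-28290121, 30.5), at the Zim1 start, and nearest to Hao2 (chr3:98990794-98991151, 28.5). All 5 were in knockout HSC, with fold enrichments from 28.5 to 37.0, and none was in knockout HPC. The HPC-only regions of highest fold enrichment with no HSC region within 1 kb lay inside Rab39 (chr9:53693713-53694087, 41.8), Trim36 (chr18:46179191-46179597, 41.0) and Dnah7a (chr1:53664229-53664682, 39.4), and near Cdc14a (chr3:116450796-116451117, 39.3) and Zfp874b (chr13:67463663-67464140, 39.0). All 5 were in knockout HPC, with fold enrichments from 33.7 to 37.4, and 2 of them, inside Rab39 and near Cdc14a, were also in knockout HSC at 20.3 and 24.9. The 5-fluorouracil and vehicle HSC lists held the regions of Rab39 (23.2 and 19.5), Cdc14a (15.2 and 14.5) and Zfp874b (13.0 and 12.4). Those inside Trim36 and Dnah7a were in no HSC list. By −log10 p the order differs, and a region inside Slc8a1 (chr17:81704692-81705204), absent from the HSC list, had a −log10 p of 746.6 in HPC, above the 443.3 of the Rab39 region.

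The 2 classes were then looked up in lists that had not defined them, again at the strongest 40073 regions of each list. Of 9508 HSC-only regions, 59.0% were in knockout HSC and 15.8% in knockout HPC, and of 9729 HPC-only regions, 28.3% were in knockout HSC and 76.8% in knockout HPC. Of the 4813 HSC-only regions found in exactly 1 knockout list, 92.7% (91.9 to 93.4%) were in the HSC one, and of 5727 such HPC-only regions, 91.1% (90.4 to 91.9%) were in the HPC one. Of the shared HSC regions in exactly 1 knockout list, 1563 were in the HSC one and 1561 in the HPC one. Of all HSC-only regions, 1153 were in both knockout lists and 3542 in neither, and of all HPC-only regions 2251 and 1751. Among regions in exactly 1 knockout list, the difference between the cell populations was therefore found again in HSC and HPC without Kmt2c, in separate samples.

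The HSC lists of 16-week mice held more of the HSC-only class. The 5-fluorouracil list held 65.3% of HSC-only and 28.0% of HPC-only regions, and the vehicle list 68.6% and 25.8%. As deposited, with 71363 and 80100 regions, these lists held 94.4% and 98.2% of HSC-only regions, but also 67.9% and 74.0% of HPC-only regions, so most regions called HPC-only at equal number were present at some level in a larger HSC list.

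**Figure D2:**
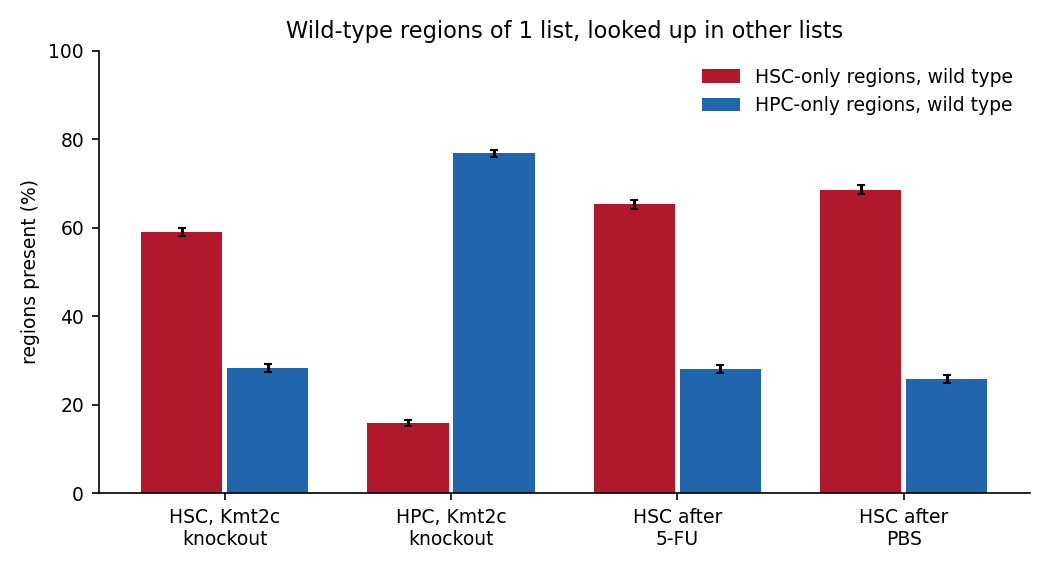
Share of wild-type HSC-only regions (red) and HPC-only regions (blue) present among the strongest 40073 regions of 4 other lists (vertical axis, percent; 95% Wilson intervals). HSC-only regions reach 59.0%, 65.3% and 68.6% in the 3 HSC lists and 15.8% in knockout HPC, and HPC-only regions reach 76.8% in knockout HPC and 25.8% to 28.3% in the HSC lists.

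Start sites were more often HSC-only than HPC-only at equal number. A region lay within 1 kb of a start in 13.8% of HSC-only regions (13.1 to 14.5%) and 5.30% of HPC-only regions (4.88 to 5.77%), against 26.5% and 26.4% of the shared regions of HSC and HPC. Of 17491 genes with a start in the table, 987 had a start open in HSC only (5.64%) and 361 in HPC only (2.06%), and 8239 were open in both. In the knockout lists the share at a start was 12.2% in HSC (1143 of 9373 regions) and 557 of 9283 regions in HPC. With the lists as deposited, the shares were 8.08% of HSC-only (7.22 to 9.02%) and 7.70% of HPC-only regions (7.40 to 8.01%), with overlapping intervals, and 171 genes had a start open in HSC only and 1378 in HPC only, so this difference too belongs to the comparison at equal number.

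Start windows of a single list were found again in part. Of the 1082 windows open in HSC only, 43.4% were open in HSC only between the knockout lists, 4.53% in HPC only, 17.7% in both and 34.3% in neither. Of the 474 open in HPC only, 27.0% were open in HPC only, 14.1% in HSC only, 37.3% in both and 21.5% in neither. Other starts with no region in the wild-type 8-week HPC list were Armh4 (21.6 in HSC), Lsamp, a neural adhesion gene (20.6), and Rorb, a nuclear receptor gene (16.5), while starts with no region in the wild-type 8-week HSC list were Nlrc3, a NOD-like receptor gene (23.7 in HPC), Cd300c, a myeloid receptor gene (19.6), Tnfsf8, the CD30 ligand (24.1), and Ccl3, a macrophage chemokine (16.4). Of these, Rorb had a region in knockout HPC (12.5), and Armh4 and Lsamp had none there. Tnfsf8 had regions in knockout HSC (19.04), 5-fluorouracil HSC (15.03) and vehicle HSC (15.5), and Nlrc3 had 10.7, 10.3 and 9.81 in the same lists.

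Regions were next counted per gene, each given to the nearest protein-coding gene body within 100 kb. Of 15063 genes with a region at equal number, 3891 had more HSC-only regions (25.8%), 3675 had more HPC-only regions (24.4%) and 7497 were even. The 6 genes with the largest excess in HSC were Atxn1, which encodes the ataxin-1 corepressor (10 HSC-only, 2 HPC-only), Ttc28 (11 and 3), Skap2, an adaptor of Src kinases next to the Hoxa cluster (7 and 0), Dnm3, a dynamin (10 and 3), Slc8a1, a sodium-calcium exchanger (9 and 3), and Sgms1, a sphingomyelin synthase (8 and 2). In the knockout lists, Skap2 had 5 HSC-only and 0 HPC-only regions, Slc8a1 6 and 1 and Sgms1 10 and 2, whereas Atxn1 had 6 and 5 and Dnm3 was even at 4 and 4. With the lists as deposited, 5 of these 6 genes had more HPC-only regions, with HSC-only minus HPC-only counts of -10 for Atxn1, -6 for Ttc28, -6 for Skap2, -9 for Dnm3 and -10 for Sgms1, and Slc8a1 had 1. Among the strongest 20000 regions of each list the difference was 1 or 2 for all 6.

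The 6 genes with the largest excess in HPC were Nfatc2, a calcineurin-activated transcription factor (1 HSC-only, 9 HPC-only), Ttll11, a tubulin-modifying enzyme (0 and 7), Rptor, the scaffold of mTORC1 (2 and 9), Sipa1l2 (0 and 7), Rin2, a regulator of Rab5 (1 and 8), and Runx1, a transcription factor that definitive haematopoiesis requires (0 and 7). Rptor (1 and 11), Runx1 (1 and 8) and Ttll11 (0 and 6) kept that order in the knockout lists, and Nfatc2 did not, at 4 and 2. Among the strongest 20000 regions the difference was between -2 and -5 for 5 of these genes and 1 for Nfatc2. Over both sets, 10 of the 12 genes had the same sign in the knockout lists. Of these genes, Atxn1 spans chr13:45549755-45964991, Skap2 chr6:51859165-52012549, Rptor chr11:119602905-119899591 and Runx1 chr16:92601466-92826074 on mm10. The 12 genes are long, with a median of 247.9 kb against 17.2 kb over all protein-coding genes.

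The HSC identity factors had 76 HSC-only and 60 HPC-only regions, and 14 of 32 genes had more HSC-only regions while 11 had more HPC-only ones. Zfp521, a zinc finger factor of immature blood cells, had 6 HSC-only regions and 1 HPC-only region, and Rarb had 5 and 0, and in the knockout lists these were 6 and 2, and 6 and 0. Runx1, and the ETS factor Erg (4 and 6) and the repressor Gfi1b (0 and 2), had the opposite order. The HSC share of single-list regions at this set was 55.9% (47.5 to 64.0%), against 49.6% over all protein-coding genes, which lies inside the interval.

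Genes of HSC surface and niche signalling had 35 HSC-only and 32 HPC-only regions. Itga6, an integrin of HSC (4 and 0), and Mmrn1, multimerin of platelets and HSC (4 and 0), lay on the HSC side, and Cd34 (0 and 3) and Cxcr4, the receptor for the niche chemokine CXCL12 (0 and 3), on the HPC side. The knockout lists gave 0 and 4 for Cxcr4 and 1 and 0 for Cd34, which turned the order of Cd34. Slamf1, the CD150 marker, had an HSC region at chr1:171773148-171773808 (fold enrichment 14.8) with none in HPC, found in knockout HSC at 20.6 and not in knockout HPC, and a region at its start in HPC at 11.7 with none in HSC.

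Lymphoid priming genes were on the HPC side at equal number. They had 30 HSC-only and 59 HPC-only regions, 5 of 31 genes had more HSC-only and 20 more HPC-only regions, and the HSC share was 33.7% (24.7 to 44.0%) against 49.6% over all genes. The knockout lists gave 30 and 53 regions, and 4 genes against 18. Ordered by fold enrichment the excess of HPC-only regions in wild type was 10 in place of 29. With the lists as deposited the set had 12 HSC-only and 136 HPC-only regions, where all protein-coding genes had 3159 and 27087. Ets1, an ETS factor of lymphocytes, had 0 HSC-only and 5 HPC-only regions, Ebf1, the B lineage factor, 1 and 4, and Ccr7, a chemokine receptor, 1 and 4. Members on the HSC side were the forkhead factor Foxp1, with 12 and 9 and so 12 of the 30 HSC-only regions of the set, Tcf4, an E protein, with 3 and 1, and Pax5, the B cell identity factor, with 1 and 0. The sets of mature lymphocytes had the same order at equal number, with 7 and 17 regions at T and NK genes and 3 and 10 at mature B and plasma cell genes, and in the knockout lists 6 and 16, and 6 and 14. Among the strongest 20000 regions the T and NK difference was 0, and the mature B interval (8.18 to 50.3%) holds the 49.6% over all genes.

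The HSC share over all protein-coding genes, 49.6%, lay inside the interval of each set in this and the next paragraph. Granulocyte and macrophage genes had 30 HSC-only and 35 HPC-only regions (46.2% HSC, 34.6 to 58.1%), an order that turned when regions were ordered by fold enrichment, with Cebpb, a C/EBP factor of myeloid cells, at 4 and 0 and Itgam, the CD11b integrin, at 1 and 5. Erythroid genes had 11 and 13 in wild type (45.8%, 27.9 to 64.9%) and 13 and 9 in knockout, with Zfpm1, the GATA1 cofactor FOG1, at 4 and 0 in wild type and 5 and 0 in knockout. Rhd and Sptb had 0 and 2 each, and of 22 erythroid genes 3 had more HSC-only and 7 more HPC-only regions. Megakaryocyte and platelet genes had 13 and 10, with Rab27b, a granule transport GTPase, at 5 and 0 in wild type and 4 and 0 in knockout. Itgb3 (1 and 3), Cd226 (0 and 2) and Plek (0 and 2) had the opposite order. Of 17 genes of this set, 6 had more HSC-only and 4 more HPC-only regions. Mast cell, basophil and eosinophil genes had 8 and 15 (34.8%, 18.8 to 55.1%), with Hdc, histidine decarboxylase, at 0 and 4 and Cpa3 at 2 and 0. Macrophage genes had 9 and 13 in wild type and 13 and 12 in knockout. Of these, Marco, a scavenger receptor, had 1 and 5, and Axl, a receptor tyrosine kinase, and Timd4, a phosphatidylserine receptor, had 2 and 0 each.

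Cell cycle entry genes had 16 HSC-only and 23 HPC-only regions, an order that also turned by fold enrichment, and 4 of 28 genes had more HSC-only and 5 more HPC-only regions. The other 19 genes were even. Cdk6, the kinase that sets how readily HSC leave quiescence, had 1 and 6 in wild type and 2 and 7 in knockout. On the HSC side, Cdkn2c had 2 and 0, and Ccne1 and Mcm3 had 1 and 0 each. Immediate early and stress factors had 21 and 15, with Jun at 4 and 0 and Fos at 3 and 1, but the knockout lists gave 0 and 4 for Fos. The Fos start itself had a region in HPC (fold enrichment 5.79) and knockout HPC (6.40) and none in HSC or knockout HSC. Atf3 (0 and 1), Btg2 (1 and 2) and Ier2 (0 and 1) lay on the HPC side. Of the 21 genes, 7 had more HSC-only and 6 more HPC-only regions. Interferon response genes had 6 and 8 regions in wild type and 11 and 3 in knockout, stroma and endothelium genes 23 and 20 in wild type (53.5%, 38.9 to 67.5%) and 14 and 15 in knockout, and housekeeping genes 11 and 4, of which Ywhaz alone had 6 and 2. The housekeeping share of 73.3% for HSC (48.0 to 89.1%) was the highest of the 15 sets.

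**Figure D3:**
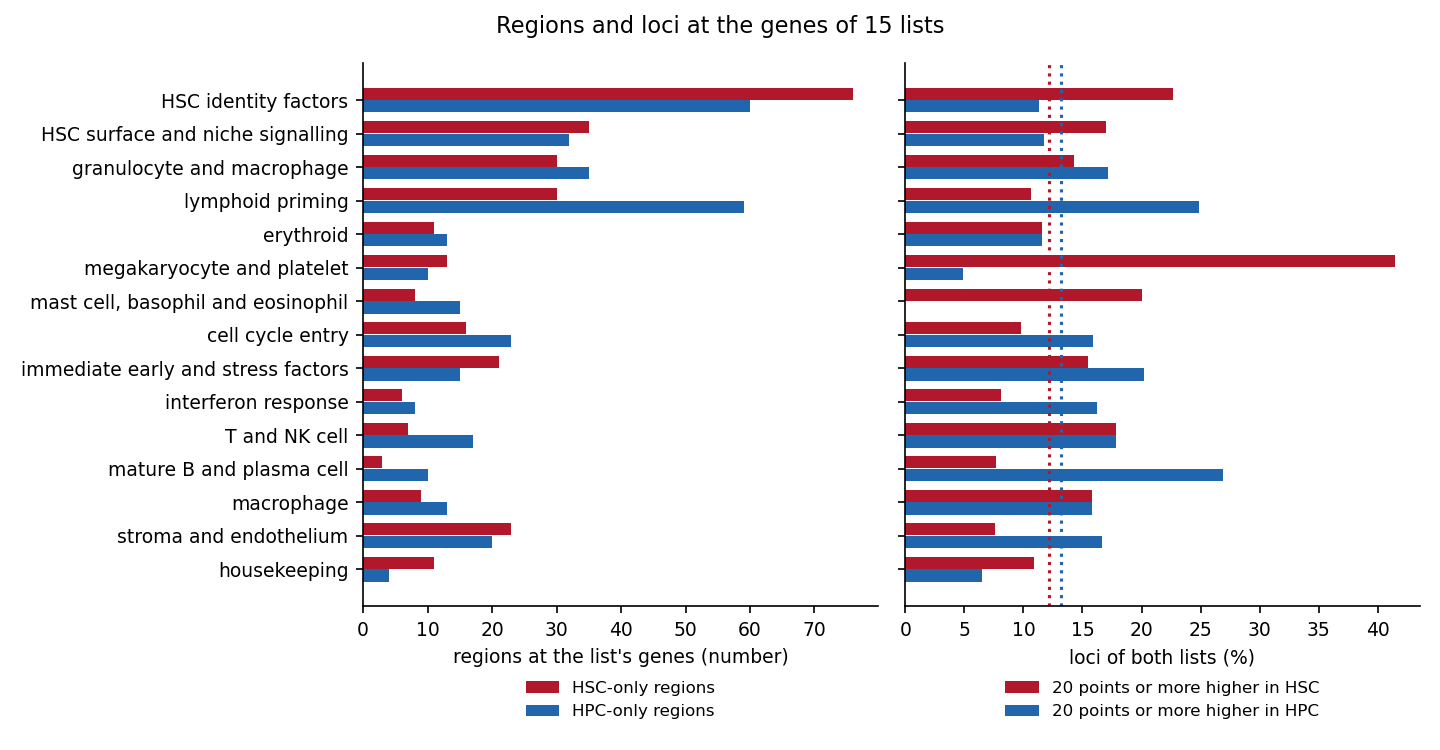
Number of HSC-only (red) and HPC-only (blue) regions at the genes of 15 lists (left panel), and share of their loci present in both lists that ranked 20 or more percentile points higher in HSC (red) or HPC (blue) by −log10 p (right panel, percent; dotted lines mark 12.2% and 13.2% over all protein-coding genes). The lymphoid set has 30 HSC-only against 59 HPC-only regions, and the megakaryocyte set has 41.5% of its 41 loci higher in HSC against 4.88% higher in HPC.

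Regions present in both lists were compared by rank. Overlapping regions formed 36240 loci, each ranked by −log10 p among these loci in each list, and the shift is the HSC percentile minus the HPC percentile. A shift of 20 points or more toward HSC was seen at 4530 loci (12.5%) and toward HPC at 4890 (13.5%). By fold enrichment the counts were 4601 (12.7%) and 4887 (13.5%), and 2869 and 3305 loci shifted 20 points or more by both measures. Loci at starts had a median shift of 2.71 points, with 9.12% toward HSC and 4.53% toward HPC, and other loci a median of -0.02, with 13.6% and 16.5%.

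The largest shifts toward HSC that both measures shared were inside Gnaz, a G protein subunit gene (chr10:75004060-75004811, fold enrichment 29.4 in HSC and 9.99 in HPC, shift 92.5), at chr14:36618295-36618894 with no gene within 100 kb (27.3 and 8.01, shift 90.9), inside Nuak1, an AMPK-related kinase (chr10:84383053-84383808, 24.5 and 6.35, shift 90.7), near Shisa9 (chr16:12307279-12307883, 26.5 and 11.3, shift 88.8) and at chr5:79734758-79735290 (30.3 and 11.3, shift 87.1). The largest shifts toward HPC were inside Ldlrad4, an inhibitor of TGF-beta signalling (chr18:68227505-68228119, 6.38 in HSC and 22.6 in HPC, shift -94.7), inside Bace1, a protease gene (chr9:45853677-45854169, 7.79 and 24.6, shift -94.5), near Aqp3, a water and glycerol channel (chr4:41073327-41073944, 8.40 and 29.1, shift -91.4), near Gm46617 (chr18:35063256-35063776, 10.9 and 33.1, shift -88.5) and at chr4:55823819-55824464 (9.24 and 36.3, shift -88.1). Those of them that were in all 4 lists of 8-week mice shifted the same way between the knockout lists, by 79.7 to 88.9 points toward HSC and by -78.8 to -91.8 points toward HPC.

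Inside Hlf, Mecom and Runx1, loci of opposite shift lay in the same gene, and the loci named from here on were chosen after their values were seen. At Hlf, 1 locus (chr11:90382051-90382544) had a fold enrichment of 14.9 in HSC and 5.72 in HPC, with a shift of 74.5 points in wild type and 79.2 in knockout, and a neighbouring locus (chr11:90381130-90381395) had 5.92 and 11.8, with a shift of -30.8. Mecom, a zinc finger factor that HSC need, had 12 loci in both lists, of which 3 shifted toward HSC and 2 toward HPC. Its locus at chr3:30455919-30456459 shifted by 55.8 points (21.6 in HSC, 18.4 in HPC), and those at chr3:30091888-30092435 and chr3:30206062-30206542 by -61.2 and -59.1 (10.1 in HSC and 26.8 in HPC, 10.4 and 27.3), with -59.8 and -51.0 in knockout. Inside Runx1, 2 loci shifted toward HSC, by 35.99 and 40.1 points, and 1 by -23.5. The largest shift assigned to Runx1 lay outside the gene body, 47822 bp away at chr16:92873897-92874412, with 10.1 in HSC and 32.3 in HPC, and shifts of -79.7 in wild type and -83.8 in knockout.

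The HSC identity set had 203 loci in both lists, of which 46 shifted toward HSC and 23 toward HPC, with a median of 4.99 points, against 0.89 over the 34477 loci of all protein-coding genes. By fold enrichment it had 33 and 21, and between the knockout lists 35 and 25 of 155 loci. Over all protein-coding genes, 12.2% and 13.2% of loci shifted by −log10 p, and 4305 and 4532 of the 34477 loci by fold enrichment. Between the knockout lists 3754 and 4012 of 29540 loci of all genes shifted, so the share of the HSC identity set there was higher in both directions. Megakaryocyte and platelet genes had the largest share toward HSC of the 15 sets, at 17 of 41 loci against 2 toward HPC, with a median of 9.23 points by −log10 p. By fold enrichment 11 of its 41 loci shifted toward HSC and 3 toward HPC, a smaller share toward HSC than the 8 of 28 of T and NK genes, and between the knockout lists 11 and 2 of 35. The start of Pf4, platelet factor 4, had a fold enrichment of 20.1 in HSC and 12.6 in HPC, with a shift of 49.3 in wild type and 51.3 in knockout. A locus at Gp9, of the von Willebrand factor receptor, had 13.5 and 6.46 with shifts of 67.0 and 68.9, and Rab27b had 4 loci toward HSC and 0 toward HPC. Cpa3, a mast cell carboxypeptidase, shifted at its start by 51.9 points, with 21.7 in HSC and 11.1 in HPC.

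Lymphoid priming genes had 141 such loci, 15 toward HSC and 35 toward HPC, with a median of -5.75, and 12 and 31 of 121 between the knockout lists. By fold enrichment the set gave 24 and 20 loci with a median of 0.71, so its order in the shared loci rests on −log10 p. Flt3, the cytokine receptor of lymphoid-primed progenitors, had 6 loci, of which 4 shifted toward HPC and 0 toward HSC by −log10 p. The strongest of these shifts, at chr5:147392635-147393293, was -53.3 in wild type and -39.0 in knockout, with 8.51 in HSC and 15.7 in HPC, while the Flt3 start had 25.1 and 21.7 with a shift of -2.31. Bcl11a, a lymphoid and globin-switching repressor, had 1 locus at -60.3 and others of up to 40.6. T and NK genes had 5 of 28 loci toward HSC and 5 toward HPC by −log10 p, and 8 and 4 by fold enrichment. In that set the start of Cd5 had 8.84 in HSC and 17.4 in HPC with a shift of -66.4, and Cd28, a T cell costimulatory receptor, had 3 loci toward HSC and 1 toward HPC. The Marco locus at chr1:120532486-120532989 shifted by -80.7 points in wild type and -79.3 in knockout, with 10.4 in HSC and 29.6 in HPC. Of other macrophage genes, C1qa had no region in either list. C1qb had 0 HSC-only and 1 HPC-only regions and Adgre1 0 and 2, while Axl and Timd4 had 2 and 0 each.

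**Figure D4:**
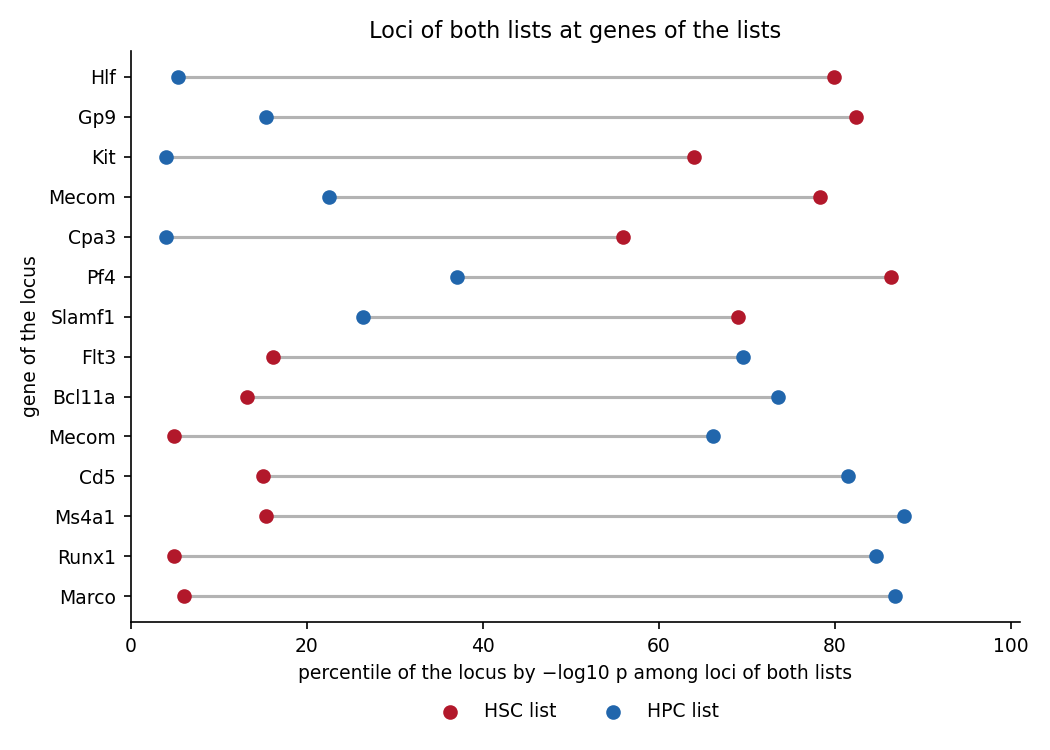
Percentile by −log10 p, among the 36240 loci of both lists, of 14 loci at genes of the sets in HSC (red) and HPC (blue), 1 locus per line, with Mecom shown for 2 loci. Hlf lies at 79.9 in HSC and 5.41 in HPC, and Marco, the lowest line, at 6.07 in HSC and 86.8 in HPC.

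Of the 36240 loci, 30944 were also in both knockout lists. There, 3994 shifted 20 points or more toward HSC (12.9%) and 4337 toward HPC (14%). Of the 3970 loci that shifted toward HSC in wild type, 54.8% (53.3 to 56.4%) shifted as far toward HSC in knockout and 0.88% toward HPC, and of the 4284 that shifted toward HPC, 65.9% (64.5 to 67.3%) shifted as far toward HPC and 0.70% toward HSC. Of the loci that shifted by 50 points or more in wild type, 375 of 388 toward HSC and 670 of 689 toward HPC shifted by 20 points or more the same way in knockout. Across the 30944 loci the 2 shifts had a Pearson correlation of 0.76 and a Spearman correlation of 0.66, given as a description, since the loci are not independent and peaks of all 4 lists come from 1 peak caller. By fold enrichment the shares found again were 43.1% and 47.4%.

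**Figure D5:**
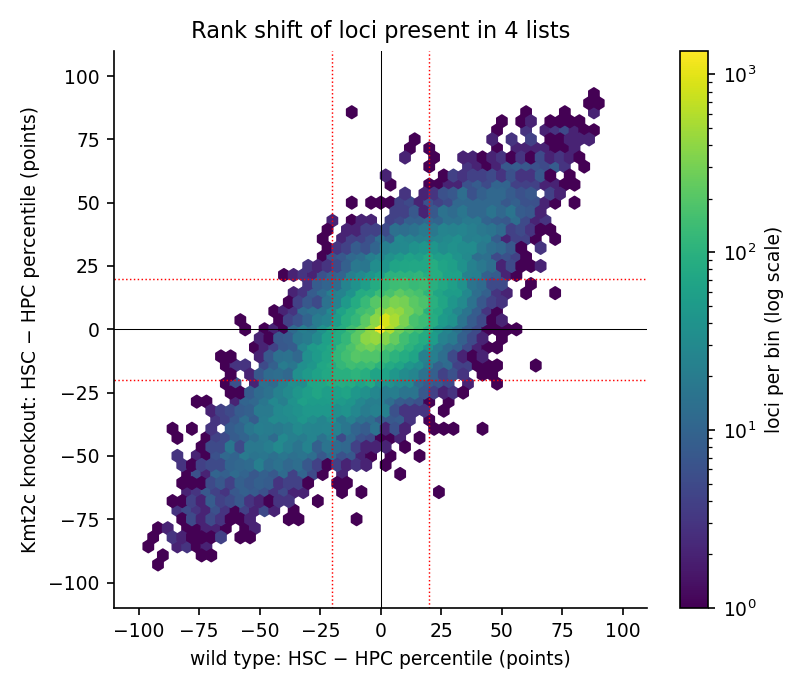
Rank shift of each of 30944 loci between HSC and HPC (HSC minus HPC percentile points by −log10 p) in wild type (horizontal axis) and in Kmt2c knockout (vertical axis), with colour giving the number of loci per bin on a log scale and dotted lines at 20 points either way. The loci run along the diagonal, and of the loci that shifted by 20 points or more in wild type, 0.88% and 0.70% lie past 20 points on the opposite side.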

How the data were processed

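ATAC-seq peak lists of mouse cells were used, 1 deposited list for each of 6 groups. The tools Bowtie2 and MACS2 and the build mm10, also named GRCm38, come from the submitters' processing notes. Versions, pooling and filters were not given in the sources used here. Per the labels' protocols, DNA was tagmented with Tn5, although the labels name RNA as the molecule. The deposited fold enrichment is a ratio of summit signal to local background, the deposited −log10 p and −log10 q are the authors' values for each row, and the deposited score was not used. The deposited summit position served for windows only. A list grows with depth and with the samples pooled, so values were ranked within a list and lists compared at an equal number of regions.

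Rows were merged where they overlapped by 1 bp or more, on chromosomes 1 to 19, X and Y, with the highest value kept. Genes came from the RefSeq table of GRCm38.p6 (21883 protein-coding genes) and start sites from its promoter table (21262 starts of 17491 genes, within 1 kb). Python 3.11 code with pandas 2.3.3 and scipy 1.17.1 was tested on simulated lists. No model was fitted and no test was run, since each group has 1 list, and no p-values were computed. Gene sets held 364 symbols in 15 lists, of which 3 matched no gene. Named genes were, in each direction, the 6 of largest net number, the nearest genes of the 5 strongest regions and the 5 largest shifts, and up to 3 members of each list, and the text gives part of them; some are not reported here. The comparison, the members, the lists and the other settings were chosen with earlier results of these data known. Motif shares in distal regions were not analysed here, because no genome sequence was used, and the planned search was made in start windows instead.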

Additional observations from a re-analysis of the deposited data

How the results depend on the processing

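The lists as deposited differ in length, and with them HSC-only regions numbered 3516 and HPC-only regions 29370. They numbered 5015 and 5035 among the strongest 20000 regions. At a 30-point threshold, 2167 loci shifted toward HSC and 2648 toward HPC. The share of HSC-only regions at a start was 8.08% as deposited, 21.3% ordered by fold enrichment, 12.2% with a gap of up to 1 kb counted as shared, 16.2% with summit windows and 18.4% with either gene end, and the share of HPC-only regions was 7.70%, 3.85%, 4.25%, 7.81% and 8.96% in the same order, so HSC-only stayed above HPC-only in all 5, narrowly as deposited. Of HSC-only regions in exactly 1 knockout list, 87.1% (fold enrichment order) and 91.3% (summit windows) were in HSC, and of HPC-only regions 80.1% (as deposited) and 86.4% (fold enrichment order) were in HPC. Genes with more HSC-only regions numbered 682 as deposited, against 9841 with more HPC-only regions. Loci shifted toward HSC were found again in 43.1% by fold enrichment, and those toward HPC in 47.4%, or 62.8% at 30 points. Start windows with under 10 CpG were 27.9% of HSC-only windows as deposited and 13.1% by fold enrichment, and 24.8% of HPC-only windows as deposited. HSC-only minus HPC-only counts changed sign as deposited for HSC identity (-128), HSC surface (-68), megakaryocyte (-29), immediate early (-44), stroma (-49) and housekeeping (-18) genes, and for Atxn1 (-10), Ttc28 (-6), Skap2 (-6), Dnm3 (-9), Sgms1 (-10), Rarb (-1), Zfp521 (-1), Cebpb (-4), Zfpm1 (-1), Jun (-1), Fos (-6) and Ywhaz (-5). They changed sign among the strongest 20000 for HSC surface (-1), erythroid (6), immediate early (-3) and stroma (-8) genes, Nfatc2 (1), Ebf1 (1) and Fos (-1), and by fold enrichment for granulocyte and macrophage (12), cell cycle (17) and interferon (3) genes and Erg (6). Apart from the unequal list lengths, the cause of these changes was not tested. No named gene of the 34 counted changed sign with a 1 kb gap or the nearest gene end. The alternatives for gene sets, CpG content, gene ends and the knockout shifts were chosen after seeing the data. No paired analysis was possible because each group has 1 pooled list, and for the same reason no replicate could be left out. The motif window of 100 bp was not run, since no genome sequence was used. Read depth was not known, so a region missing from a list may lie below its detection limit.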

Other observations

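On chromosome X the classes differed more than over the genome at equal number. HSC-only regions were 28.1% of the 718 HSC regions on chromosome X (24.97 to 31.5%), and HPC-only regions were 17.8% of the 624 HPC regions there (14.99 to 21.0%), against 23.7% and 24.3% over all chromosomes. The knockout lists gave 27.3% of 711 regions in HSC (24.1 to 30.7%) and 18.6% of 640 regions in HPC (15.8 to 21.8%). The chromosome was chosen after its values were seen, and the intervals cover counting error only.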
